A study of Mus musculus with 10 samples.

Results

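Macrophages (0) was the first of 2 clusters that the authors named macrophages among the cells of ascites, the fluid that gathers in the peritoneal cavity in ovarian cancer. Its members were the marker genes the authors listed for it, taken by the cluster's label alone: 158 genes, out of 1991 entries and 1596 distinct genes over 9 clusters. The cells came from 1 C57BL/6 mouse whose label gives Lkb1, the kinase encoded by Stk11, as deleted. Plasmids encoding Cas9, Cre and a guide RNA had been electroporated in vivo into its fallopian tube epithelial cells to start a tumor. The labels do not give the animal's age or a PAX8 status for the ascites, and they do not name the genes that the guide RNA targeted. Red blood cells were removed and a 3' single-cell RNA library was made with the Chromium V2 kit. There was 1 library with no control ascites, so no comparison of conditions and no test was possible, and the number of cells per cluster is not known.

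Macrophages of the peritoneal cavity come in long-lived resident cells, large and rich in phagocytic receptors, and in smaller cells renewed from blood monocytes, which carry MHC class II and the chemokine receptor Ccr2. Scavenger receptors bind modified lipoproteins, microbes and dying cells, and the lysosome digests what they bring in. Complement component C1q, made largely by macrophages, is the recognition unit that starts the classical complement pathway and tags debris for uptake.

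Each listed value is the average log fold change of a gene in the cluster against all other cells of the library, read as a natural log. A value of 0.69 is then a doubling. The comparison cells of each macrophage cluster include the other macrophage cluster, so a gene high in both would show a smaller value in each. The table listed no value below 0.50, and a gene missing from a cluster's list may still be expressed there. All values below are differences, not expression levels, and they were also the values that defined the list, so they are given as description.

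Saa3, an acute-phase serum amyloid A protein that mouse macrophages make in inflammation, led the cluster at 2.28 in the authors' deposited table, 9.77-fold. Marco, a class A scavenger receptor for bacteria and particles, followed at 2.05 (7.80-fold) in the authors' deposited table. Fcna, which encodes ficolin A, a soluble lectin that recognises microbial sugars, stood at 1.92 and Arg1, the arginase that turns arginine into ornithine and urea, at 1.91 in the authors' deposited table. Apoe, the apolipoprotein that carries cholesterol and other lipids, stood at 1.79 and C1qa, the A chain of C1q, at 1.73 in the authors' deposited table. These 6 genes, the ones that mark the cluster here, were listed in no other cluster. The same held for all 20 of its highest markers, down to Ccl6 at 1.25 in the authors' deposited table.

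The other leading genes had varied roles. Ltc4s, leukotriene C4 synthase, stood at 1.77 and Fn1, fibronectin, at 1.69 in the authors' deposited table. Cd5l, a scavenger-type protein secreted by tissue macrophages, stood at 1.64 and Pf4, the chemokine CXCL4 first known from platelets, at 1.60 in the authors' deposited table. Hal, which starts the breakdown of histidine, stood at 1.58, Lyz2, lysozyme, at 1.47, and Hmox1, heme oxygenase, at 1.45 in the authors' deposited table. Ednrb, an endothelin receptor, and Folr2, folate receptor beta, both stood at 1.31 in the authors' deposited table. Selenop, the secreted selenium carrier, stood at 1.28 in the authors' deposited table.

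**Figure D1:**
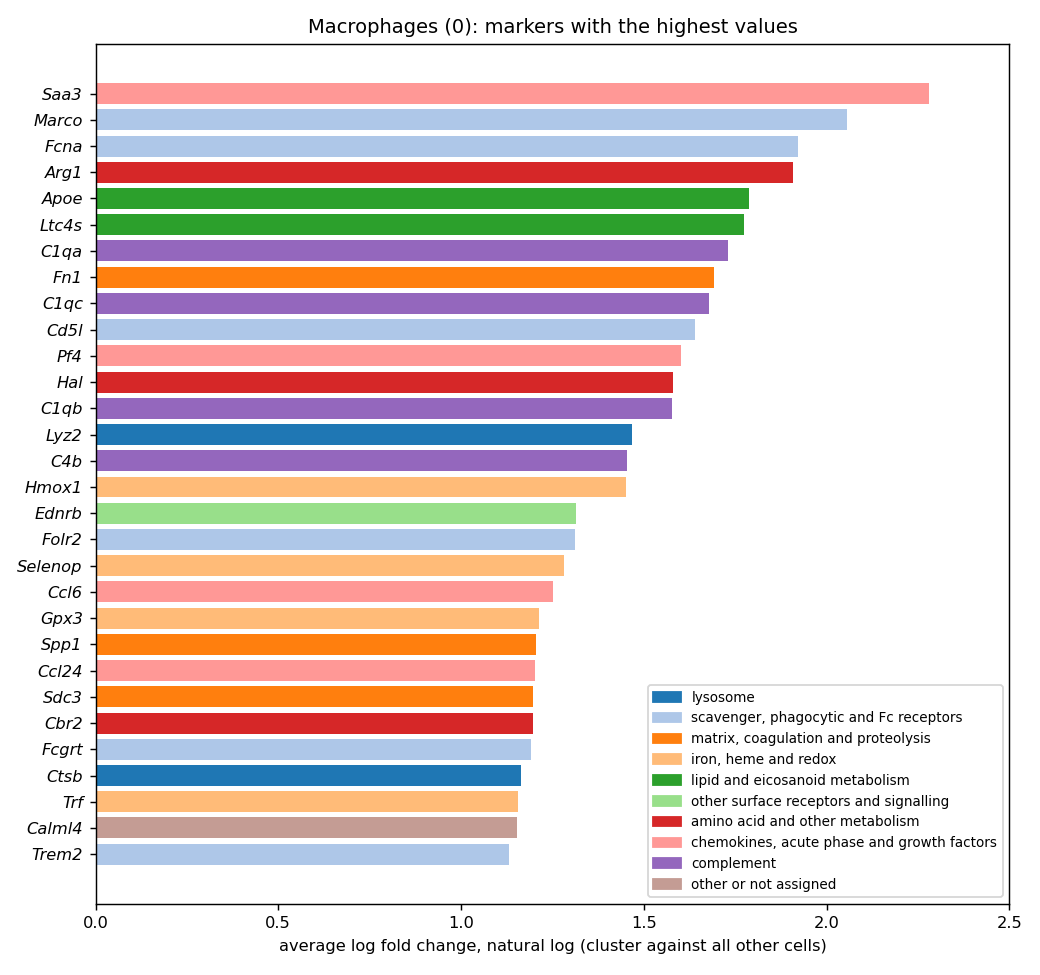
The 30 Macrophages (0) markers with the highest average log fold change (x axis, natural log, cluster against all other cells of 1 library), coloured by a role assigned by hand. Bars run from Saa3 at 2.28 to Trem2 at 1.13, and genes of several roles alternate down the list.

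The values fell off quickly. The median of the 158 markers was 0.76 (quartiles 0.596 and 0.998), 40 stood at 1 or more, and 25 lay under 0.55. The last 3 were Adgre1, which encodes the macrophage antigen F4/80, at 0.501, Pid1 at 0.502 and Thbs1 at 0.503 in the authors' deposited table. What lies just outside the list is not in the table.

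Of 1596 distinct genes in the table, 158 (9.9%) were markers of Macrophages (0) and 75 (4.7%) of Macrophages (3). These shares are over genes that some cluster listed, so they stand beside the count of a list's genes found in the table and not beside the size of the whole list. The lists were compiled with results of these data known, and the counts describe the same values that defined the cluster, so nothing is read from them as a test.

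The label fitted the markers of the cell type. Of 10 macrophage markers other than the 6 leading genes, 8 were listed, among them C1qb, C1qc, Csf1r (the receptor for the macrophage growth factor CSF1), Cd68, Lyz2, Itgam and Adgre1. Mertk, a receptor for dying cells, was listed in no cluster, and Fcgr1, the high-affinity receptor for IgG, was listed in Macrophages (3) at 0.92 in the authors' deposited table. Of 110 entries in lists for 11 other cell types or states (dendritic cells, neutrophils, B cells, T and NK cells, epithelium, mesothelium, fibroblasts, red cells, platelets, granulocytes of the mast cell and eosinophil kind, and cycling cells), Pf4 in the platelet list was the 1 found in Macrophages (0). The other 5 platelet genes were in no cluster, and S100a8, S100a9, Cd79a, Cd3e, Epcam, Col1a1 and the globin genes were all absent from the Macrophages (0) list. Other clusters set beside it carry the authors' names, though their lists were mixed. Monocytes (1) listed 10 of 12 neutrophil markers, Dividing cells (5) 5 of 10 dendritic cell markers with 6 of 10 cycling ones, and Tumor cells (2) 9 of 10 mesothelial and 6 of 13 epithelial markers.

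Sorted by role, the lysosome was the largest named group and the scavenger, phagocytic and Fc receptors came next. The roles were assigned by hand after the values were known and place 128 of the 158 genes in 11 groups, with 30 left as other. The lysosome took 22 genes, scavenger, phagocytic and Fc receptors with their soluble partners 18, matrix, coagulation and proteolysis 15, iron, heme and redox genes 14, and lipid and eicosanoid enzymes 12. Amino acid and other metabolism had 11 genes, other surface receptors and signalling 11, chemokines with acute-phase and growth factors 10, complement 8, transcription regulators 4, and MHC class I with interferon-induced genes 3. The order by size of the difference was another one. The complement group had the highest median, 1.21, against 0.75 for scavenger receptors and 0.72 for the lysosome in the authors' deposited table.

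**Figure D2:**
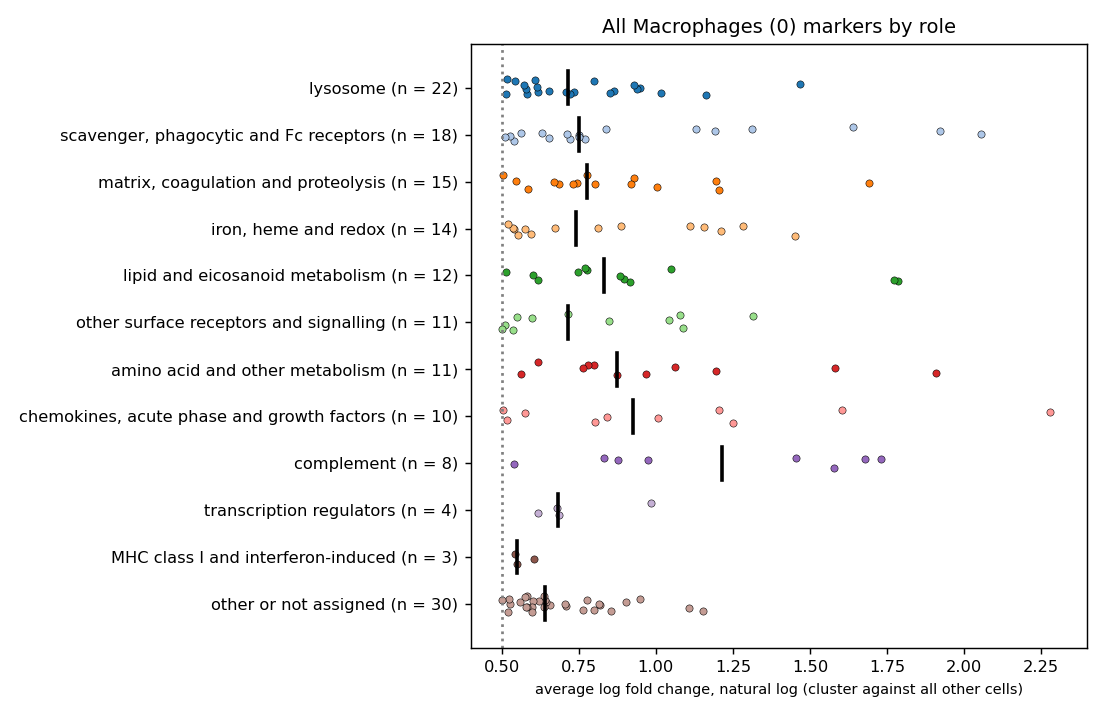
All 158 Macrophages (0) markers by role (y axis, number of genes in brackets) against the average log fold change (x axis, natural log). Each point is 1 gene, black bars are medians, and the dotted line is the floor of 0.50. The complement genes lie furthest right by median (1.21), while the lysosome group is larger (22 genes) and sits lower (0.72).

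Of the 30 genes on the list of scavenger and phagocytic receptors and their soluble kin, 11 were listed for Macrophages (0), against 4 in Monocytes (1), 1 in Macrophages (3) and 1 in CAFs (8), the cancer-associated fibroblasts. Of the 16 that some cluster listed, these were 11, 4, 1 and 1. Over all 1596 distinct genes the same clusters listed 158, 241, 75 and 360, and the 1 in Macrophages (3) is near its share. Fcna and Cd5l among the 11 are soluble proteins, and Fcna is also on the complement list. After Marco, Fcna and Cd5l came Trem2, a lipid-sensing receptor, at 1.13 and Msr1, the class A scavenger receptor SR-A, at 0.84 in the authors' deposited table. Timd4, which binds phosphatidylserine on dying cells, and Stab1, stabilin-1, both stood at 0.75 in the authors' deposited table. Axl, a receptor kinase for the bridging protein Gas6, stood at 0.71, and Gas6 itself was listed at 0.51 in the authors' deposited table. Cd163, the receptor for haemoglobin bound to haptoglobin, stood at 0.65, Cd36, a fatty acid and lipoprotein receptor, at 0.54, and Lrp1 at 0.53 in the authors' deposited table. Outside the fixed list stood Lyve1, a hyaluronan receptor, at 0.72 in the authors' deposited table. The mannose receptor Mrc1 and the receptors Vsig4, Stab2 and Cd209a were in no cluster's list. The 4 in Monocytes (1) were Clec4e at 1.85, Cd14 at 1.46, Cd300lf at 1.25 and Clec7a at 0.95 in the authors' deposited table.

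Fc receptors bind antibody. Macrophages (0) listed 3 of 7, Fcgrt (the neonatal Fc receptor, which recycles IgG) at 1.19, the inhibitory Fcgr2b at 0.77 and the activating Fcgr3 at 0.56 in the authors' deposited table. Macrophages (3) listed 1, Fcgr1.

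Complement genes were listed for Macrophages (0) and for the tumor cells and CAFs. Macrophages (0) listed 9 of 28 (Fcna among them), tumor cells 6, CAFs 6 and Macrophages (3) none (0 of 28). Of the 17 that some cluster listed, these were 9, 6, 6 and 0. Over all 1596 distinct genes the same clusters listed 158, 572, 360 and 75. The 6 of tumor cells and the 0 of Macrophages (3) are near those shares. All 3 chains of C1q were listed close together, C1qa at 1.73, C1qc at 1.68 and C1qb at 1.58 in the authors' deposited table. C4b, cleaved after C1q binds, stood at 1.45 and Cfp, properdin, which stabilises the alternative pathway convertase, at 0.97 in the authors' deposited table. C4b has a near-identical copy, C4a, so its reads are uncertain. Itgam, the alpha chain of complement receptor 3, stood at 0.83 and C3ar1, the receptor for the fragment C3a, at 0.54 in the authors' deposited table. The remaining pathway genes lay elsewhere: C3 in tumor cells (1.48) and CAFs (1.41), C1s1 in tumor cells (1.16) and CAFs (1.06), and the C1 inhibitor Serping1 in tumor cells (1.34) and CAFs (2.04) in the authors' deposited table. C1ra, the other protease of the C1 complex, was listed in CAFs at 0.56, and C5ar1, the receptor for C5a, in Monocytes (1) at 0.66 in the authors' deposited table.

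The C1q genes also sit together in the genome. C1qb, C1qc and C1qa lie on chromosome 4 within 18719 bp, from 136880126 to 136898844 in GRCm38. Of 156 members placed by symbol, 25 had another member within 100 kb, among them Apoe with Apoc4, Ccl6 with Ccl9, Fcgr2b with Fcgr3, and Tmem176a with Tmem176b. In the other clusters' lists that share ran from 13.2% to 35.1%, the upper end being Macrophages (3). The genes Tmem176a and Tmem176b overlap, as do Ctsa and Pltp, so their reads may be shared.

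Promoters from RefSeq (GRCm38.p6), 250 bases before to 50 after a start of the gene, were found for 122 of the 158 genes, 156 promoters in all. C1qa had none in the table. The letters AGGAAGT or their reverse complement, a core of sites for PU.1, a transcription factor of myeloid and B cells, were in 14.1% of these promoters and in 9.35% of all 32851 promoters. In the other clusters' lists the share ran from 5.88% in Erythrocytes (7) to 27.5% in Macrophages (3), and it was above that of Macrophages (0) in Monocytes (1) at 19.6%, T-cells (6) at 19.9%, B-cells (4) at 15.5% and Dividing cells (5) at 16.3%. The promoters of C1qb, C1qc and Fcna, 3 genes for soluble recognition proteins with collagen-like stalks, each held 1 match and are shown with it in capitals (ACTTCCT where the match is on the other strand). C1qb lies at chr4:136886151-136886450, minus strand, C1qc at chr4:136892865-136893164, minus strand, and Fcna at chr2:25627925-25628224, minus strand. The match begins at -53 in C1qb, -195 in C1qc and -15 in Fcna, counted from the start used in the RefSeq table. That start is at or near the edge of the annotated gene for C1qb and C1qc, and kilobases inside the gene's full span for Fcna. A match describes letters and does not show binding.
C1qb: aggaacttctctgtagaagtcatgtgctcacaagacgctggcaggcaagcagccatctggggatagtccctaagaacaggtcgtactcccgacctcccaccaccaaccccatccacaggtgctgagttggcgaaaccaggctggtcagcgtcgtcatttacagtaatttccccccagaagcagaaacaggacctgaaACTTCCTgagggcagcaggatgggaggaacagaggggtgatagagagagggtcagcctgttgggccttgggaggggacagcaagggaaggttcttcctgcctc
C1qc: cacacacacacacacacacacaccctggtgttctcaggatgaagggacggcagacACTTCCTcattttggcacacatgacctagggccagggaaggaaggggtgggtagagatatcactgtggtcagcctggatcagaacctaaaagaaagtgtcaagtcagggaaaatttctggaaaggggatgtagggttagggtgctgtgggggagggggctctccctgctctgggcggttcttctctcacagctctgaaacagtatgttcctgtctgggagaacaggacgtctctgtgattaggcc
Fcna: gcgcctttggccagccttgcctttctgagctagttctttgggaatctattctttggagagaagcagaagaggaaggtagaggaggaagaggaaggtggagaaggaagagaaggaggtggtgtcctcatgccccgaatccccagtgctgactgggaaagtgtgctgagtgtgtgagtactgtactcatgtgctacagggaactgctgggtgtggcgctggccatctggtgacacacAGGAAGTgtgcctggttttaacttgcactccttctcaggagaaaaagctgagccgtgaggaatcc

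Saa3, the leading marker, was the 1 gene of 19 inflammatory mediators listed for Macrophages (0). Il1b at 3.03, Lcn2 at 2.29, Il1rn at 1.14 and Ptgs2 at 1.08 were listed in Monocytes (1) in the authors' deposited table, Lcn2 also in CAFs at 0.69, and Tnf, Il6 and Nos2 in no cluster. The letters TTGCNNAA, a core of sites for C/EBP factors, were in 14.7% of Macrophages (0) promoters, 5.88% to 12.4% of those of the other clusters and 10.8% of all promoters, on either strand. The Saa3 promoter (chr7:46715627-46715926, minus strand) held 1, at -99 from a start that also lies kilobases inside the gene's full span, shown in capitals because Saa3 leads the cluster and Cebpa, a C/EBP factor, is also on its list. Of the 4 motifs searched, TGCTGA, part of a site for MAF family factors, was in 24.4% of Macrophages (0) promoters, 5.88% to 20.3% of those of the other clusters and 19.5% of all, and 2 matches to different motifs overlapped.
Saa3: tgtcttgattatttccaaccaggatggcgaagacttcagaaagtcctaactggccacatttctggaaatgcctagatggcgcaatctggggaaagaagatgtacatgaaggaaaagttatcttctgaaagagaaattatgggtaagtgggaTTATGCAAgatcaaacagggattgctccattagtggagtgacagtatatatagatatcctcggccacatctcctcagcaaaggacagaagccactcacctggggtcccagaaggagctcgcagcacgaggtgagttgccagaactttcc

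Of the 15 function lists, the lysosome list had the largest share of its genes in Macrophages (0), 59.4%. The cluster listed 19 of the 32 genes, and of the 20 that any cluster listed the 1 missing from it was Cst3, in Dividing cells (5). Macrophages (3) listed 4 of them, all shared with Macrophages (0). All 8 cathepsins of the cluster were lysosomal proteases: Ctsb at 1.16, Ctsd at 0.95, Ctsz at 0.73, Ctss at 0.72, Ctsh at 0.62, Ctsa at 0.61, Ctsl at 0.58 and Ctsc at 0.51 in the authors' deposited table. Other contents of the organelle stood at similar values. Grn, progranulin, stood at 1.02, Psap, the precursor of the saposins, at 0.94, Hexa, a hexosaminidase, at 0.71 and Tpp1, a peptidase, at 0.58 in the authors' deposited table. The membrane proteins Lamp1 at 0.93, Cd68 at 0.86, Cd63 at 0.85 and Lamp2 at 0.54 were listed too in the authors' deposited table. TCACGTGA, the core of the CLEAR element bound by TFEB, a regulator of lysosomal genes, was in 2 of 24 promoters of the lysosome group (8.33%), 1.28% of all Macrophages (0) promoters and 0.97% of all promoters. In the other clusters' lists it was in 0% (Dividing cells) to 2.94% (Erythrocytes), and the share was higher than in Macrophages (0) in 7 of those 8 lists. These 2 were Ctsa, with copies at -13 and 4, and Ctsd, with 1 at -99, shown over 100 bases with the core in capitals (for Ctsa at the second of 2 starts in the table, inside the gene's span), at chr2:164833714-164833813, plus strand, and chr7:142387873-142387972, minus strand.
Ctsa: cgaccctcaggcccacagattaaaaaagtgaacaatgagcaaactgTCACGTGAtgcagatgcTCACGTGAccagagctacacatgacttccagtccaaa
Ctsd: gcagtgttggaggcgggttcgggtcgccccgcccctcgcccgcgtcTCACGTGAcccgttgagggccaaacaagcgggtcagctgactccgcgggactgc

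Lipid genes were spread over several clusters, and Macrophages (0) held mostly those of cholesterol carriage and release. It listed 6 of 30: Apoe, Pltp, the phospholipid transfer protein, at 1.05, Apoc4 at 0.92, the cholesterol exporter Abca1 at 0.62, the lysosomal acid lipase Lipa at 0.60 and the cholesterol carrier Npc2 at 0.51 in the authors' deposited table. Other genes of the list were in other clusters: Soat1 (2.08), Lpl (1.06), Fabp5 (0.91) and Fabp3 (0.69) in tumor cells, Fabp4 (1.31) in CAFs and Plin2 (0.53) in Monocytes (1) in the authors' deposited table. Enzymes of eicosanoid synthesis stood beside them on the Macrophages (0) list. These were Ltc4s at 1.77, Tbxas1, thromboxane synthase, at 0.90, Fam213b, a prostaglandin F synthase, at 0.77 and Alox15, a lipoxygenase, at 0.75 in the authors' deposited table.

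Iron and heme genes were listed in 8 of 16 cases, against 2 in Monocytes (1), 2 in CAFs and 0 in Macrophages (3). Of the 11 that some cluster listed, these were 8, 2, 2 and 0. Over all 1596 distinct genes the same clusters listed 158, 241, 360 and 75. The counts of Monocytes (1), CAFs and Macrophages (3) are near those shares. Among genes of heme handling, the list held Cd163, the heme transporter Slc48a1 (0.52), Hmox1 (1.45), which opens the ring, and Blvrb (0.89), a biliverdin reductase, in the authors' deposited table. Blvra, the other biliverdin reductase of the gene list, was in no cluster. The ferritin genes Ftl1 at 1.11 and Fth1 at 0.54, transferrin (Trf) at 1.16 and the metal transporter Slc11a1 at 0.58 were listed in the authors' deposited table. Ftl1-ps1, a pseudogene copy of Ftl1, was listed as well (0.54 in the authors' deposited table), and reads may be split between these copies. Slc40a1, ferroportin, through which cells release iron, was listed in Monocytes (1) at 1.34 in the authors' deposited table. Redox genes included Gpx3, the secreted glutathione peroxidase, at 1.21, Cybb at 0.81 and Cyba at 0.67, which form the core of the NADPH oxidase, in the authors' deposited table.

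The list of alternative activation and arginine genes holds some that interleukins of helper T cells induce in macrophages. It also holds genes not particular to that response, such as Arg2 and Socs3. Of its 16 genes, Arg1 and Ccl24, a chemokine for eosinophils, at 1.20 were listed for Macrophages (0) in the authors' deposited table. Chil3 (0.73), Mgl2 (0.52) and Tgfbi (1.26) were in Macrophages (3), Arg2 (0.96) and Socs3 (1.39) in Monocytes (1), in the authors' deposited table, while Retnla, Mrc1 and Il4ra were in none. Other enzymes of amino acid metabolism on the list were Hal and Glul, glutamine synthetase, at 1.06 in the authors' deposited table.

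Chemokines were listed for both macrophage clusters and for CAFs. Macrophages (0) listed 6 of 20, Pf4 at 1.60, Ccl6 at 1.25, Ccl24 at 1.20, Ccl9 at 1.01, Ccl8 at 0.80 and Cxcl13 at 0.52 in the authors' deposited table. Macrophages (3) listed 7, Ccl12 at 0.89, Ccl5 at 0.87, Ccl2 at 0.69, Ccl7 at 0.64, Ccl4 at 0.63, Ccl9 at 0.57 and Cxcl16 at 0.55 in the authors' deposited table. Ccl9 was the 1 gene in both. Of those in Macrophages (3), Ccl2 (1.45), Ccl7 (0.97) and Cxcl16 (0.52) were also listed in CAFs and Ccl5 (2.96) in T-cells, in the authors' deposited table. Cxcl13, which attracts B cells, was far higher in CAFs, at 2.52 in the authors' deposited table.

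Coagulation and matrix genes were listed in 8 of 25 cases. Fn1 at 1.69, Spp1, osteopontin, at 1.20, the protease inhibitor Timp2 at 1.003 and F13a1, the clot-linking factor XIII A chain, at 0.93 led them in the authors' deposited table. Ecm1, an extracellular matrix protein, stood at 0.92 and F10, coagulation factor X, at 0.67 in the authors' deposited table. Igf1, a growth factor, and Thbs1, thrombospondin-1, both stood at 0.50 in the authors' deposited table.

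Of 25 transcription factors of the lineage, 3 were listed, among them Cebpa at 0.69 and Zeb2 at 0.62 in the authors' deposited table. Spi1, which encodes PU.1 (1.01), Cebpb (1.37) and Cebpd (1.61) were listed in Monocytes (1), and Maf (0.77) and Id3 (1.27) in CAFs, in the authors' deposited table. Of 19 interferon-induced genes, Ifitm3 at 0.55 was listed for Macrophages (0), and Irf7 at 0.51 for Macrophages (3), in the authors' deposited table.

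Among only the list genes that some cluster listed, the base of the 9.9% above, Macrophages (0) held 19 of 20 lysosome genes, 9 of 11 resident genes, 3 of 4 Fc receptors, 8 of 11 iron and heme genes and 11 of 16 scavenger genes. It held 8 of 15 coagulation and matrix genes, 9 of 17 complement genes, 6 of 15 lipid genes, 6 of 15 chemokines and 2 of 7 alternative activation genes. At the other end were 3 of 14 transcription factors, 3 of 15 recruited genes, 1 of 6 interferon genes, 1 of 9 inflammatory mediators and 0 of 10 MHC class II genes. All of these but the class II genes were still above 9.9%, at 21.4%, 20%, 16.7% and 11.1% in that order. With only 10 class II genes, 0 is close to that share.

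**Figure D3:**
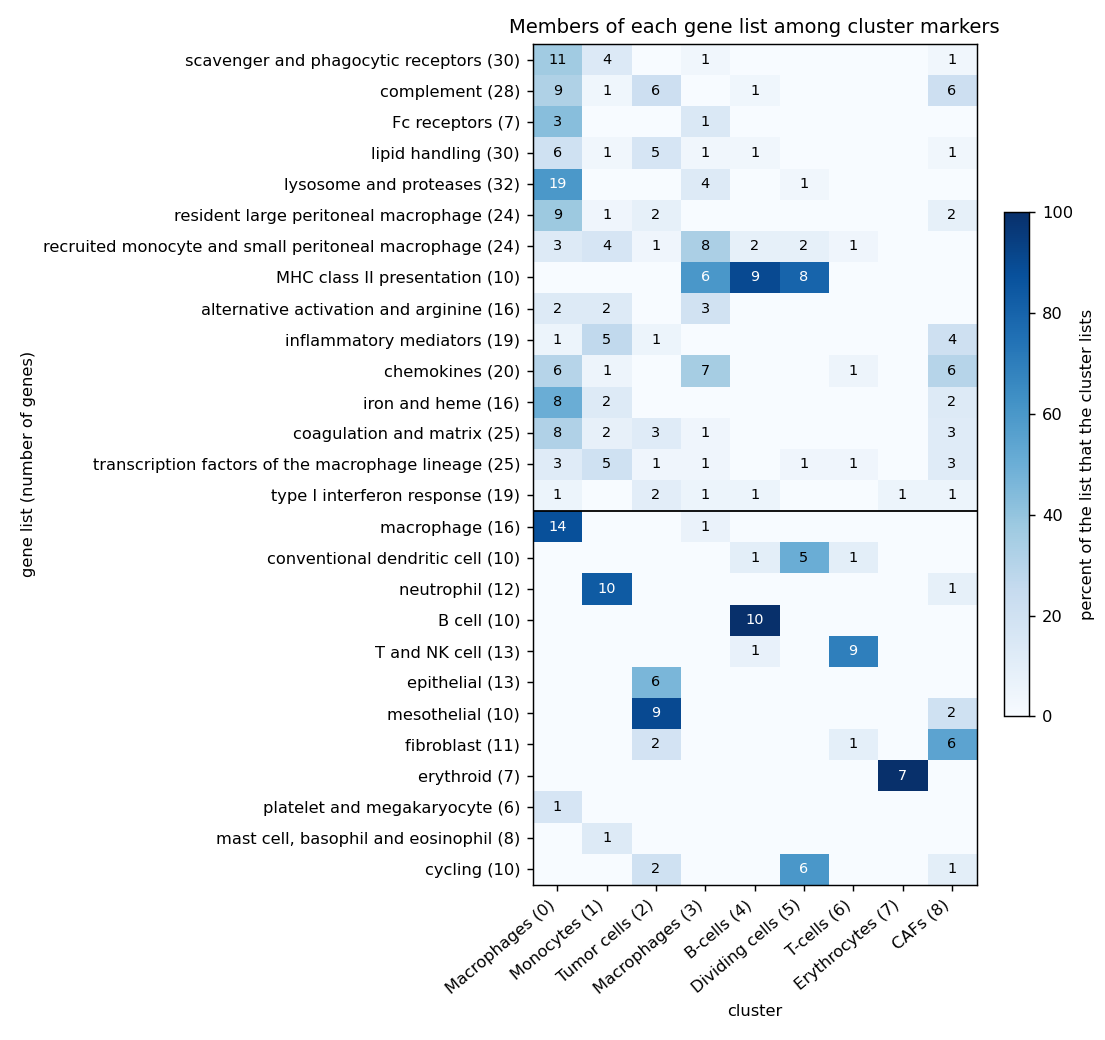
Number of genes of each list (rows, list size in brackets) among the markers of each cluster (columns), shaded by the percent of the list. Lists above the line describe functions, those below it cell types. Macrophages (0) holds 19 of 32 lysosome genes and 14 of 16 macrophage markers, the latter including its 6 leading genes, and no MHC class II gene.

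Markers of resident peritoneal macrophages were listed for Macrophages (0) and those of recruited cells mostly for Macrophages (3). The resident list gave 9 of 24 genes in Macrophages (0) and 0 in Macrophages (3), and the recruited list gave 3 and 8 of 24. Of genes that some cluster listed, these were 9 and 0 of 11 resident genes, and 3 and 8 of 15 recruited genes. Beside them, Macrophages (0) listed 9.9% and Macrophages (3) 4.7% of all 1596 distinct genes. The 0 of 11 is therefore near the share of Macrophages (3), and the 3 of 15 (20%) is above that of Macrophages (0). After Fn1 the resident genes stood low: Prg4, the joint lubricant also made by resident peritoneal macrophages, at 0.78, Timd4 at 0.75, Alox15 at 0.75, F10 at 0.67 and Itga6, an integrin chain, at 0.60 in the authors' deposited table. Laptm5 (0.52), Cxcl13 (0.52) and Adgre1 (0.50) were at the floor in the authors' deposited table. Gata6, the transcription factor that sets the identity of large resident peritoneal macrophages, was not among them. It was listed in CAFs at 0.95 and in tumor cells at 0.66 in the authors' deposited table. Icam2, Selp, Garnl3, Rarb, Naip1 and Vsig4, other genes of the resident program, were in no list.

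On the recruited side Macrophages (3) listed Ccr2, the receptor that draws monocytes from blood, at 1.60, Ms4a4c at 1.34, Plac8 at 1.31 and Napsa at 0.98 in the authors' deposited table. S100a4 (0.81), Chil3 (0.73), Mgl2 (0.52) and Cx3cr1 (0.51) followed there in the authors' deposited table. The 3 in Macrophages (0) were F13a1 at 0.93, Ifitm3 at 0.55 and Thbs1 at 0.50 in the authors' deposited table. Ly6c2, which marks inflammatory monocytes, was listed in Monocytes (1) at 1.19 in the authors' deposited table.

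No gene of MHC class II presentation was listed for Macrophages (0). All 10 genes of that list were somewhere in the table, 9 in B-cells (4), 8 in Dividing cells (5), 6 in Macrophages (3) and 0 in Macrophages (0). In Macrophages (3) H2-Ab1, a class II beta chain, stood at 2.21 and Cd74, the invariant chain that guides class II molecules, at 2.06 in the authors' deposited table. The class I genes H2-K1 (0.60) and B2m (0.54), which present peptides from inside the cell, were on the Macrophages (0) list in the authors' deposited table. H2-K1 belongs to a family of near-identical genes, so its value is uncertain.

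The macrophage clusters shared 7 markers, 4.43% of the Macrophages (0) list and 9.33% of the 75 genes of Macrophages (3). Of all 1596 distinct genes, Macrophages (3) listed 4.7% and Macrophages (0) listed 9.9%. The 4.43% is near the share of Macrophages (3) and the 9.33% near that of Macrophages (0). The count of 7 therefore shows neither more nor less sharing than those shares alone would give. Ccl9 (1.01 and 0.57), Lgmn, the protease legumain (0.80 and 0.58), and Ctsh (0.62 and 0.53) were higher in Macrophages (0), the first value of each pair, in the authors' deposited table. Ctsc (0.51 and 0.98), Pid1 (0.50 and 0.71), Ctss (0.72 and 0.81) and Ms4a6d (0.58 and 0.64) were higher in Macrophages (3) in the authors' deposited table. The median difference, Macrophages (0) minus Macrophages (3), was -0.06, and 4 of the 7 were lysosomal proteases. Every value of Macrophages (3) is against cells that include Macrophages (0) and the reverse, so these pairs are not a comparison of the clusters with each other.

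**Figure D4:**
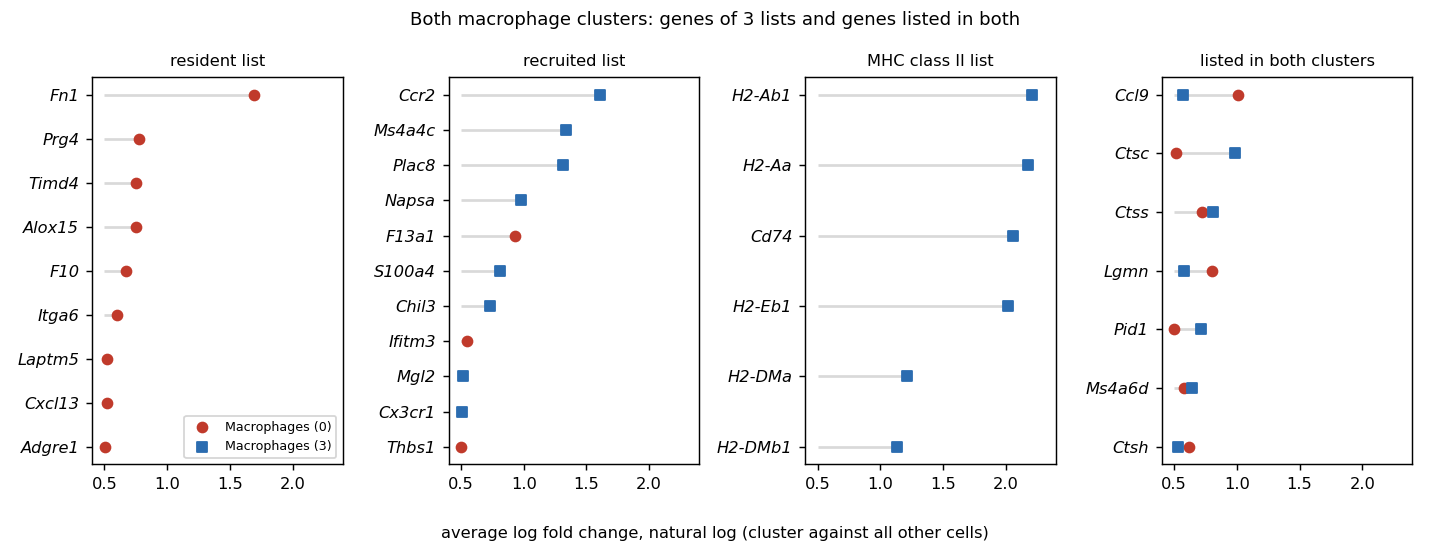
Average log fold change (x axis, natural log) of genes of the resident, recruited and MHC class II lists and of the 7 shared markers, in Macrophages (0) (red circles) and Macrophages (3) (blue squares). A missing symbol means that the gene was not listed for that cluster. All 9 resident genes carry circles alone, all 6 class II genes squares alone.

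Few Macrophages (0) markers appeared anywhere else. Of its 158 genes, 149 (94.3%) were listed in no other cluster, the highest share of the 9 clusters, of which Monocytes (1) came next at 88.0% and B-cells (4) last at 39.5%. Over all clusters, 1991 entries covered 1596 distinct genes, so most genes were listed in 1 cluster only. Macrophages (3) had 53.3%. Macrophages (0) shared 7 genes with Macrophages (3), 2 with CAFs (Fth1 at 0.54 against 0.82 and Cxcl13 at 0.52 against 2.52 in the authors' deposited table) and none with the other 6 clusters. Macrophages (3), with its shorter list, shared 15 of its 75 genes with Dividing cells (5) and 9 with B-cells (4). The share depends on what else was clustered and on list length, and its error over animals was not measurable with 1 library.

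**Figure D5:**
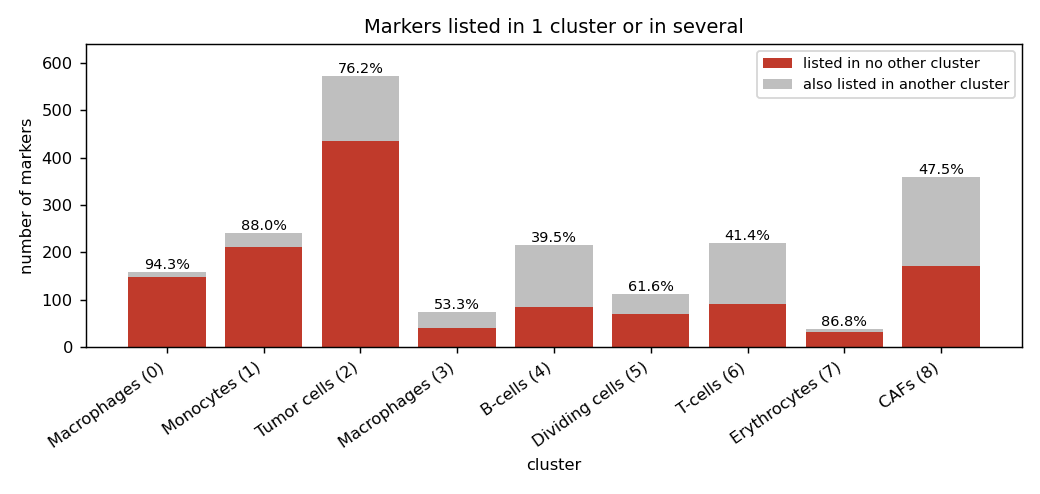
Number of markers per cluster (y axis), split into genes listed in no other cluster (red) and genes also listed elsewhere (grey), with the percent listed in no other cluster above each bar. Macrophages (0) has the highest percent, 94.3%, and Macrophages (3) has 53.3%.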

How the data were processed

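Ascites cells were sequenced as 1 library, and the submitters' processing notes name GRCm38 (mm10), Cell Ranger and Seurat 2.3.4. The authors deposited markers of 9 clusters with an average log fold change, per the file headers, read as a natural log because Seurat 2.3.4 writes one, while the header gives no base. The authors also deposited p-values over cells, which do not measure spread between animals and are not printed, and their adjusted p is the raw p times 54949, the features counted. Filters on cells, doublets, cell numbers and read depth are not given in the sources used here, and copy number files of the tumors were not used. Spreadsheet dates replaced 6 names in the table, 0 of them in Macrophages (0). The members and lists were chosen with earlier results of these data known. By rule, the genes named were the 6 given markers, the 20 highest markers, the 15 highest listed nowhere else, up to 8 members of each function list by value, up to 10 shared markers in each direction of difference from Macrophages (3), and list genes whose absence is described. All other genes named (list members past the first 8, Lyve1, Gas6, Tbxas1 and the like) and the roles were chosen after their values were seen. A few list members are not reported here by name. Positions and promoters came from RefSeq tables (GRCm38.p6), where 2 of 158 members matched by an older symbol for position. The counting functions were tested on simulated data, and recovered 20 of 20 sets. Python 3.11.15, numpy 2.4.6, pandas 2.3.3, scipy 1.17.1 and matplotlib 3.10.9 were used.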

Additional observations from a re-analysis of the deposited data

How the results depend on the processing

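No test was run, so the alternatives show how far counts hang on the floor of the table. Keeping markers with an authors' adjusted p under 0.01 changed none of the counts of Macrophages (0). That filter could remove none of the cluster's markers, because their adjusted p all lay far below 0.01. With a floor of ln 2 (0.69), 92 markers were left, 98.9% of them listed in no other cluster, 1 was shared with Macrophages (3), and the resident and recruited lists gave 4 and 1 in Macrophages (0). With a floor of 1, 40 were left, 100% in no other cluster and 0 shared, with 4 scavenger receptors, 5 complement genes, 1 resident and 0 recruited gene in Macrophages (0) and 3 recruited genes in Macrophages (3). At that floor the median difference had no shared marker to rest on. Resident genes in Macrophages (3) were 0 as deposited, which a higher floor could not change. Of the 25 lists beside the scavenger and complement ones, the resident and recruited lists included, 8 moved by more than 1.5 times at ln 2 and 9 at a floor of 1. The MHC class II list and 10 of the cell type lists had 0 members in Macrophages (0) as deposited and could not move. Most of the lists that could move did so at both floors. The planned filter on shares of cells was not run, because the table has no such column. No paired analysis was possible because 1 library was measured. Depth and the number of cells are unknown, so the precision of each value is not known.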
